A study of Mus musculus with 22 samples.

Results

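The 34 genes described here are those that skeletal muscle uses to build its fibres and to renew them, followed through 22 mouse cheek tumours. They were taken by symbol from a fixed set of names among the 56748 gene identifiers of the count tables. The names were chosen with earlier results of these data known, so counts of calls among them describe the set and do not test it. Of the 34, 27 encode proteins of the mature fibre. The other 7 (Pax7, Myf5, Myod1, Myog, Mymk, Myh3 and Myh8) mark muscle that is forming or regenerating. All 34 were found in the tables, and all lie on autosomes. RNA was sequenced in bulk from frozen primary tumours, labelled squamous carcinoma, that had been raised by injecting 4-hydroxytamoxifen into the buccal mucosa.

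Every animal carried 1 Krt5CreER-T2 allele, 2 floxed Trp53 alleles and 2 copies of the Rosa26 PIK3CA(H1047R) transgene behind a stop cassette. The Cre is driven by Krt5, a keratin gene of basal keratinocytes, so the design aims recombination at the epithelium and not at muscle. The 6 Keap1-wildtype untreated and 6 Keap1-wildtype BAP tumours had no floxed Keap1, while the Keap1-deleted tumours, 5 untreated and 5 with BAP, had 2 floxed Keap1 alleles besides. BAP is benzo[a]pyrene, a carcinogen of tobacco smoke, given to the BAP groups. The labels give no age or sex and do not say that the tumours are from separate animals, so p-values measure the spread between these samples. In bulk RNA, fewer muscle cells and less muscle RNA per cell cannot be told apart.

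A skeletal muscle fibre is a long fused cell filled with sarcomeres, in which thick filaments of myosin pull on thin filaments of actin when calcium is released from the sarcoplasmic reticulum. After injury, Pax7-positive satellite cells leave their resting state, pass through the myogenic factors Myf5, MyoD and myogenin, fuse with the help of myomaker and first make embryonic and neonatal myosins before adult ones. The cheek holds the buccinator and masseter muscles close under the mucosa.

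The libraries held between 29235010 and 39862777 counts. Keap1, the targeted gene, was at 45.7 to 78.9 CPM (counts-per-million, scaled by TMM) in Keap1-wildtype untreated tumours and at 52.3 to 64.5 CPM in Keap1-wildtype BAP tumours. It was at 22.2 to 36.4 CPM in Keap1-deleted untreated tumours and at 9.44 to 32.2 CPM in 4 of 5 tumours labelled Keap1-deleted BAP. At 65.5 CPM, the library labelled Keap1-deleted BAP 2 lay above every Keap1-wildtype BAP library, and goes against its label. Keap1-wildtype untreated 6 stood apart in its basal keratinocyte markers (10 genes, Krt5 and Krt14 among them), whose summed level was 1158 CPM against 18990 CPM or more in the rest of its group. Counts of calls are also given without these 2 libraries, and without Keap1-deleted BAP 5, which held little muscle RNA.

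To show the regulatory sequence next to the genes, the 250 bases before the RefSeq start of 4 members are printed (GRCm38.p6, 5′ to 3′ on the gene's strand). Acta1 (skeletal actin) is at chr8:123894776-123895025 on the minus strand, Des (desmin) at chr1:75360042-75360291 on the plus strand, Ttn (titin) at chr2:76982548-76982797 on the minus strand and Myog (myogenin) at chr1:134289754-134290003 on the plus strand. The first 3 are fibre genes that moved together in the tumours described below, and Myog stands for the regeneration genes. Capitals mark matches, on either strand, to the muscle E-box CAGCTG that MyoD and myogenin can bind and to the MCAT element CATTCCT, bound by TEAD factors. They also mark a MEF2-like pattern (CTA and TAG with any 4 bases between), which only approximates a MEF2 site.
Acta1: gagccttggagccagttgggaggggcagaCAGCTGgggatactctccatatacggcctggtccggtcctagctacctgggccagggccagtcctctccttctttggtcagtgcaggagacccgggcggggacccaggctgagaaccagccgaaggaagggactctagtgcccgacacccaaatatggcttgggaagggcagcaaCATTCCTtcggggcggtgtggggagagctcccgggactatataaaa
Des: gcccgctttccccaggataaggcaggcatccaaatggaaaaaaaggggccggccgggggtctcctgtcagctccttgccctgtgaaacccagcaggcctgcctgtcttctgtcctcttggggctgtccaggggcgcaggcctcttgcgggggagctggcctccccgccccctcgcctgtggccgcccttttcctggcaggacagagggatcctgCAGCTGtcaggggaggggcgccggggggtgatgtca
Ttn: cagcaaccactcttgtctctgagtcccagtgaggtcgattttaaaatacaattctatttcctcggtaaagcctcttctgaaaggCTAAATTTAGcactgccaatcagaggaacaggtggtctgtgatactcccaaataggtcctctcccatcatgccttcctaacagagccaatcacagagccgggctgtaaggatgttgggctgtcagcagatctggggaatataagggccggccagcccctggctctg
Myog: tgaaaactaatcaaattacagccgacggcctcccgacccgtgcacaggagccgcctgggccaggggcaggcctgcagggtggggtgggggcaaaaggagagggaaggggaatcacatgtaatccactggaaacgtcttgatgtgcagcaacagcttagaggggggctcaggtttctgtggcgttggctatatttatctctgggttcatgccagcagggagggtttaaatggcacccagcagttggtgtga
Acta1 held an E-box and an MCAT match, Des an E-box, Ttn a MEF2-like pattern, and Myog none of the letters searched in this window. RefSeq promoters of 300 bases, from 250 before to 50 after the start, were given for 28 of the 34 members, with no entry for Neb, Actn3, Tnnt3, Tnni2, Myod1 and Mymk. The E-box was in a promoter of 12 of these 28 genes, and in 16.4% of 32544 distinct promoters of the same length in the table. The MEF2-like pattern was in 3 of the 34 promoters (of Des, Ttn and Myf5) against 3.70% of all promoters. The MCAT element was in 2 (of Acta1 and Myl3) against 5.38%. Such matches are descriptions of letters, not of binding, and a promoter without a match, such as that of Myog, may still hold other forms of these sites.

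Muscle RNA was present in most tumours but in very unequal amounts. Among the 27 fibre genes Tpm2, which encodes a beta-tropomyosin also made outside skeletal muscle, was between 113 and 468 CPM in every library and made up 13.0% to 91.8% of the summed fibre level. Sums are therefore given without it. On that sum, Keap1-wildtype untreated tumours ranged from 31.7 to 750 CPM with a median of 188.0, and Keap1-wildtype BAP tumours from 25.5 to 120 CPM with a median of 44.3. The Keap1-deleted untreated tumours were at 708, 1501, 230.0, 2382 and 525 CPM, and the Keap1-deleted BAP tumours at 1745, 716, 1810, 724 and 36.3 CPM. Keap1-deleted BAP 5 thus lay within the Keap1-wildtype BAP range on this sum. The other 9 Keap1-deleted tumours lay above every Keap1-wildtype BAP tumour. Low sums rested largely on a few members. Keap1-wildtype BAP 4, at 25.5 CPM, held 2 myosin heavy chain counts, with Tnni1 at 7.70 and Tnni2 at 6.88 CPM. Tnni1 was at 17.3 CPM in Keap1-wildtype BAP 3, and Ryr1 at 24.3 CPM in Keap1-wildtype BAP 5. Low sums may therefore not measure fibre content, and the source of these values was not tested.

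**Figure D1:**
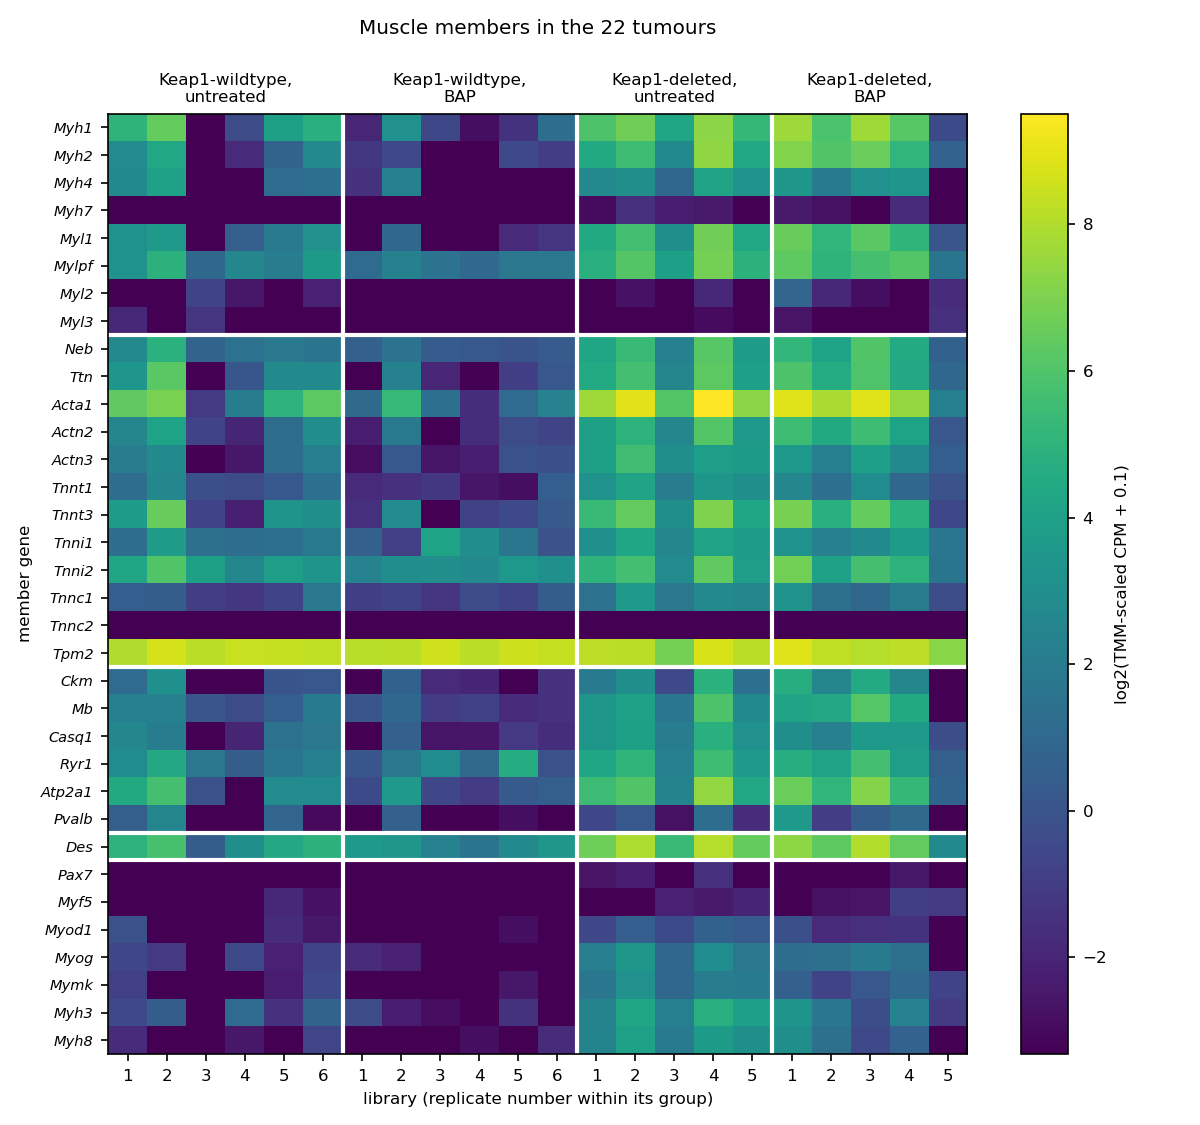
Each row is a member and each column a library, coloured by log2(TMM-scaled CPM + 0.1), with white lines between the 4 groups and between roles. The regeneration genes at the bottom stay at or below 2.16 CPM in all 12 Keap1-wildtype libraries, also in Keap1-wildtype untreated 2, whose fibre genes reach 750 CPM in sum without Tpm2.

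The regeneration genes followed another order. Their summed level was 0 to 3.50 CPM with a median of 2.11 in Keap1-wildtype untreated tumours and 0.0326 to 0.873 CPM with a median of 0.205 in Keap1-wildtype BAP tumours. It was 18.9, 56.4, 12.8, 52.4 and 31.9 CPM in the Keap1-deleted untreated tumours and 22.4, 9.14, 6.45, 12.0 and 1.24 CPM in the Keap1-deleted BAP tumours. No Keap1-deleted untreated tumour overlapped a Keap1-wildtype tumour of either kind, and Keap1-deleted BAP 5 was the 1 Keap1-deleted library that fell inside the untreated wildtype range.

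Setting the 7 against all 27, regeneration genes gave a median of 0.335 CPM per 100 CPM of fibre genes in Keap1-wildtype untreated tumours (0 to 0.752). The median was 0.0520 in Keap1-wildtype BAP tumours (0.00758 to 0.280). Keap1-deleted untreated tumours were at 1.88, 3.14, 3.71, 1.87 and 3.91, and Keap1-deleted BAP tumours at 1.01, 0.891, 0.310, 1.17 and 0.661. On this ratio, with Tpm2 among the fibre genes, the Keap1-deleted untreated tumours were highest and did not overlap any other group. Libraries of like fibre content differed in regeneration genes. Keap1-wildtype untreated 2 and Keap1-deleted untreated 1 held 750 and 708 CPM of fibre genes without Tpm2, but 1.61 and 18.9 CPM of regeneration genes. Keap1-deleted BAP 3 and Keap1-deleted untreated 2 held 1810 and 1501 CPM of fibre genes, but 6.45 and 56.4 CPM of regeneration genes. The gap was smaller for Keap1-deleted BAP 1, with 1745 CPM of fibre genes and 22.4 CPM of regeneration genes. At low fibre content the order of genotypes was the other way. Keap1-wildtype untreated 4 and Keap1-deleted BAP 5 held 35.8 and 36.3 CPM of fibre genes, and 2.85 and 1.24 CPM of regeneration genes. Without Tpm2 the medians were 0.768, 0.315, 3.75 and 1.28 in the same order of groups. The Keap1-deleted untreated tumours, at 2.2 to 6.08, then overlapped every other group. Keap1-wildtype untreated 4, at 7.97 with only 35.8 CPM of fibre genes, exceeded every Keap1-deleted library. Keap1-wildtype BAP 1 was at 3.03 and Keap1-deleted BAP 5 at 3.41. As mean log2 CPM of regeneration minus fibre genes, the group medians were -3.64, -2.805, -2.719 and -3.769, and all groups overlapped. The ratio carries no test.

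**Figure D2:**
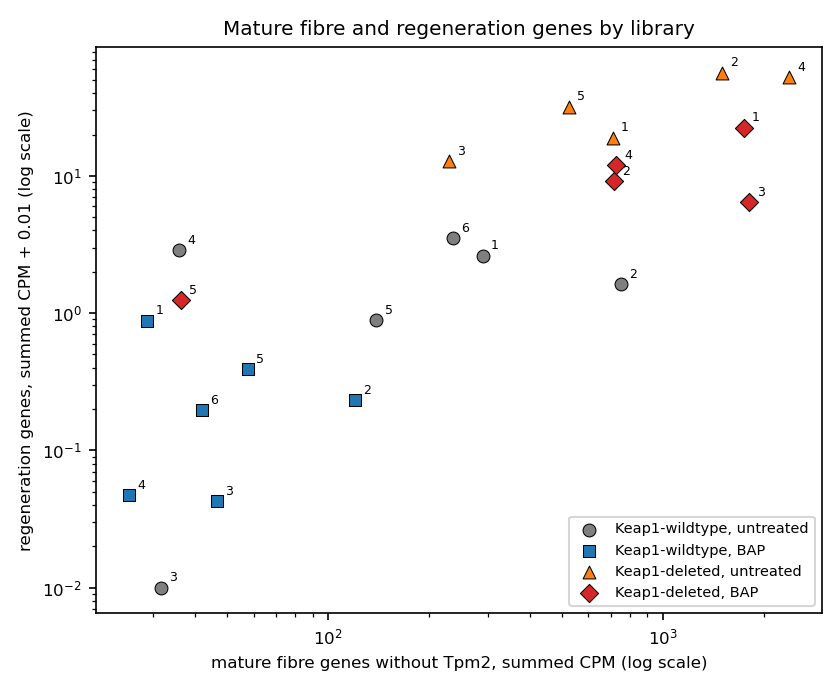
Each point is a library, numbered within its group, with the summed CPM of the 26 fibre genes other than Tpm2 on the horizontal log axis and that of the 7 regeneration genes plus 0.01 on the vertical log axis. The Keap1-deleted untreated tumours lie above the other libraries of like fibre content, and Keap1-deleted BAP 5 lies among the Keap1-wildtype tumours.

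In BAP tumours, 23 of the 28 members that passed the filter on low counts rose with Keap1 deletion and none fell, at an adjusted p under 0.05 in edgeR's quasi-likelihood test over 19202 genes. The background was high, since 20.3% of all genes rose and 20% fell in the same comparison. The 23 were 18 of 23 fibre genes and all 5 tested regeneration genes, with a median log2 fold change of 4.47 over the 28 against -0.001 over all genes. The count was also 23 without the library labelled Keap1-deleted BAP 2, without Keap1-deleted BAP 5, and without the former and Keap1-wildtype untreated 6 together. Fitted on the BAP tumours alone it was 20 of 25 (24.3% of all genes), since Myog, Myh8 and Myod1 did not pass the filter on low counts there and were not tested. The 6 members not tested were Myh7, Myl2, Myl3, Tnnc2, Pax7 and Myf5.

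Of the thick filament genes 4 of 5 rose, with a median log2 fold change of 5.67. Myh2, the myosin heavy chain of fast oxidative type 2A fibres, was at 0 to 0.611 CPM (median 0.367) in Keap1-wildtype BAP tumours and at 137, 65.7, 94.3, 35.4 and 1.56 CPM in Keap1-deleted BAP tumours. The groups did not overlap, and the log2 fold change was 7.67 (SE 1.46, adjusted p = 6.71e-04 in edgeR). Myh1, the myosin of fast type 2X fibres, was at 0.0370 to 9.01 CPM (median 0.427) against 197, 59.4, 202, 72.1 and 0.648 CPM. Its log2 fold change was 5.67 (SE 1.49), and the lone low library, Keap1-deleted BAP 5, lay within the wildtype range. The essential light chain gene Myl1 rose by 6.90 (SE 1.40) and the fast regulatory light chain gene Mylpf by 3.94 (SE 0.72) on the log2 scale. Myh4, the myosin of the fastest type 2B fibres, was at 0 to 4.97 CPM against 11.2, 3.89, 9.03, 10.5 and 0 CPM, and its log2 fold change of 2.97 (SE 1.58) did not pass (adjusted p = 0.141 in edgeR).

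Among the thin filament and giant proteins, 9 of 11 tested members rose. Acta1, the skeletal alpha-actin, was at 0.222 to 38.3 CPM (median 2.29) in Keap1-wildtype BAP tumours and at 475, 234, 472, 178 and 4.56 CPM in Keap1-deleted BAP tumours. Its log2 fold change was 5.03 (SE 1.31). Titin, the molecular spring encoded by Ttn, was at 0 to 4.87 CPM (median 0.291) against 60.3, 23.3, 62.5, 21.6 and 1.83 CPM, a log2 fold change of 4.96. Keap1-deleted BAP 5 was again the lowest of its group for both genes, and its values lay inside the wildtype range. Nebulin (Neb), the ruler of the thin filament, rose by 4.28 and the Z-disc crosslinker genes Actn2 and Actn3 by 4.95 and 4.02 on the log2 scale. Actn3 was at 0.0323 to 1.05 CPM against 11.2, 4.49, 15.3, 6.73 and 1.33 CPM, without overlap.

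Among the troponins, which make the thin filament respond to calcium, fast and slow isoforms were both found to rise. Fast troponin T (Tnnt3) rose by 5.04, slow troponin T (Tnnt1) by 3.32, the slow and cardiac troponin C gene Tnnc1 by 2.60 and fast troponin I (Tnni2) by 2.42 on the log2 scale. Slow troponin I (Tnni1) did not pass: it was at 0.446 to 17.3 CPM in Keap1-wildtype BAP tumours and 9.71, 4.80, 6.93, 13.0 and 3.24 CPM in Keap1-deleted BAP tumours, and its log2 fold change was 0.55 (SE 0.72). Tpm2 did not pass either, at a log2 fold change of -0.11 (SE 0.27), which became 0.34 when library totals were the only scaling and 0.06 without Keap1-deleted BAP 5. Tnnc2, fast troponin C, was listed at 0 in all 22 libraries, and 74.0% of its exon bases (592 of 800) lie opposite those of Ube2c, so its level could not be read.

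Of the 6 genes of calcium handling and fibre metabolism, 4 rose. Myoglobin (Mb), the oxygen store of muscle, rose by 5.20 and muscle creatine kinase (Ckm), which buffers ATP, by 5.11 on the log2 scale. Atp2a1, the calcium pump of fast fibres, rose by 4.56 and Casq1, which stores calcium in the sarcoplasmic reticulum, by 4.38. Parts of these genes share exon bases with genes on the other strand (31.9% for Mb, 21.9% for Atp2a1, 15.5% for Ckm), and the counting is not stated to use strand. The calcium release channel gene Ryr1 had a log2 fold change of 1.74 (SE 0.89) and the calcium buffer gene Pvalb one of 3.61 (SE 1.73), and neither passed. Ryr1 in Keap1-wildtype BAP 5 was at 24.3 CPM, within the range of Keap1-deleted tumours, while Myh1 in the same library was at 0.267 CPM. Desmin (Des), the intermediate filament that ties sarcomeres together, was at 2.96 to 12.4 CPM (median 8.80) against 158, 80.7, 263, 85.5 and 7.07 CPM, and its log2 fold change was 3.86 (SE 0.79). All Keap1-deleted BAP libraries but the fifth lay above the wildtype range for desmin.

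All 5 tested regeneration genes rose with Keap1 deletion under BAP. Myog, Myh8 and Myod1 did not pass the low-count filter on the BAP tumours alone, and were tested here through counts in the untreated tumours. Mymk passed it through the Keap1-deleted libraries. That all of them rose is therefore partly a result of which genes could be tested. Myog, the factor that commits myoblasts to differentiate, was at 0 to 0.194 CPM (median 0) in Keap1-wildtype BAP tumours and at 2.29, 2.58, 3.77, 2.57 and 0 CPM in Keap1-deleted BAP tumours, a log2 fold change of 5.25. Mymk (myomaker), the membrane protein for myoblast fusion, had 2 counts in all Keap1-wildtype BAP libraries together and 208 in Keap1-deleted BAP libraries. The ratio of pooled levels was 93.5, with a 95% exact interval of 25.6 to 777 that covers counting error only. Mymk was at 1.42, 0.530, 1.01, 1.98 and 0.501 CPM, above every Keap1-wildtype BAP library. Myod1, which turns on the muscle programme, had 1 count against 56, a ratio of 50.3 with an interval of 8.67 to 2023. The embryonic myosin gene Myh3 was at 0 to 0.679 CPM (median 0.0640) against 9.74, 3.21, 0.742, 5.09 and 0.383 CPM, a log2 fold change of 4.38 (SE 1.12). The neonatal myosin gene Myh8 was at 0 to 0.187 CPM (median 0) against 8.17, 2.58, 0.619, 1.56 and 0 CPM, a log2 fold change of 6.03 (SE 1.41). In Keap1-deleted BAP 5 both developmental myosins lay inside the wildtype range, and in Keap1-deleted BAP 3 they were low next to its 202 CPM of Myh1.

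Pax7, the satellite cell factor, had no count in any of the 12 Keap1-wildtype libraries, which allows a pooled level of up to 0.0148 CPM in the untreated and 0.0173 CPM in the BAP group at 3 counts, for counting error only. It had 2, 4, 0, 8 and 0 counts in Keap1-deleted untreated tumours, where the pooled level was at least 5.26-fold higher (2.77-fold without Keap1-deleted untreated 4), and 3 counts in Keap1-deleted BAP tumours, all in Keap1-deleted BAP 4. Myf5, another early myogenic factor, had no count in Keap1-wildtype BAP tumours and 33 in Keap1-deleted BAP tumours, at least 9.89-fold higher (6.32-fold without Keap1-deleted BAP 4). The slow and ventricular regulatory light chain gene Myl2 had none against 74, at least 22.2-fold higher. Of the 74 counts 58 came from Keap1-deleted BAP 1, at 1.75 CPM, and without this library the bound was 5.79-fold on 16 counts. Bounds without the highest library were computed after seeing the data. The slow myosin gene Myh7 was at or below 0.241 CPM in every library and the slow light chain gene Myl3 at or below 0.291 CPM.

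Groups that did not overlap were fewer than calls. In BAP tumours 3 of 28 members (Myh2, Actn3 and Mymk) were higher in every Keap1-deleted than in every Keap1-wildtype library, against 13.8% of all genes tested. The basal keratinocyte markers differed the other way in the same comparison: all 10 fell, and their summed level was 27240 to 63230 CPM in Keap1-wildtype BAP and 81.1 to 1670 CPM in Keap1-deleted BAP tumours, without overlap. All 8 fibroblast markers and all 8 macrophage markers rose, and of 8 smooth muscle markers 5 rose and 1 fell. Fibroblast markers summed to 565 to 2150 CPM against 12320 to 37490 CPM. With the mean keratinocyte level as a covariate none of the 23 members remained called, and 0% of all genes rose (adjusted p = 0.467 to 0.996 in edgeR), although the median log2 fold change was still 4.24. Keratinocyte content and Keap1 group cannot be told apart in the BAP tumours.

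Without BAP, no member passed the adjusted threshold in edgeR, where 0.214% of all genes rose, but the members with the lowest adjusted p were the regeneration genes. The median log2 fold change of the 28 tested members was 2.24. The log2 fold change was 6.03 for Myh8 (SE 1.33, adjusted p = 0.0505), 4.48 for Mymk (SE 1.03, 0.0628), 3.95 for Myog (SE 1.07, 0.0932) and 3.81 for Myh3 (SE 1.06, 0.0972). Fibre genes had a median of 2.08 and adjusted p-values of 0.104 or more. DESeq2's test called 9 members, where 2.11% of all genes rose, and limma-voom with sample weights 12, where 6.67% rose. Myh8, Mymk, Myog, Myh3, Des, Mylpf, Tnnc1 and Tnnt1 were in both. Without Keap1-wildtype untreated 6, edgeR called 7 (Myh8, Mymk, Myog, Myh3, Des, Mylpf and Tnnc1), where 8.64% of all genes rose. The same 7 were called when the library labelled Keap1-deleted BAP 2 was left out as well, where 7.9% rose. Myh8 alone passed without Keap1-deleted BAP 1 (0.222% of all genes) or without Keap1-deleted BAP 5 (0.137%), which enter the estimate of spread. None of the 10 keratinocyte, 8 fibroblast, 8 macrophage or 8 smooth muscle markers was called in this comparison, with median log2 fold changes of -0.80, 1.21, 0.53 and 0.95. Markers of endothelium and of nerve and Schwann cells were not called either, but all 6 and all 8 had log2 fold changes above 0 (medians 1.31 and 1.10), and 5 of each list had an unadjusted p under 0.05. The lowest adjusted p was 0.0941 and 0.107 in edgeR. Endothelial markers summed to 65.5 to 237 CPM in Keap1-wildtype and 188 to 414 CPM in Keap1-deleted untreated tumours, and nerve markers to 39.0 to 121 and 55.6 to 192 CPM. Their part in the members' differences was not tested.

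The regeneration genes were separated library by library in the untreated tumours. Myh3 was at 0 to 2.16 CPM (median 0.939) in Keap1-wildtype untreated tumours and at 5.30, 19.0, 4.54, 26.1 and 14.9 CPM in Keap1-deleted untreated tumours. Myh8 was at 0 to 0.544 CPM (median 0.0386) against 5.42, 16.0, 3.72, 12.8 and 8.40 CPM. Both myosins of developing muscle were higher in each of the 5 deleted than in each of the 6 wildtype tumours. Myog was at 0 to 0.617 CPM (median 0.425) against 4.46, 10.9, 1.86, 7.55 and 3.31 CPM. Mymk was at 0 to 0.621 CPM (median 0.0519) against 3.13, 9.03, 1.86, 4.16 and 3.90 CPM. These also did not overlap, and with Actn3 the regeneration genes named here made 5 of 28 members without overlap. Of all genes, 1.23% were higher in every Keap1-deleted library. Myog, Mymk and Myh8 had only 70, 41 and 29 counts in the Keap1-wildtype untreated libraries together. They passed the low-count filter through the Keap1-deleted libraries, so their lack of overlap among the 28 is a description only. Pax7 and Myf5 were not among the 28.

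**Figure D3:**
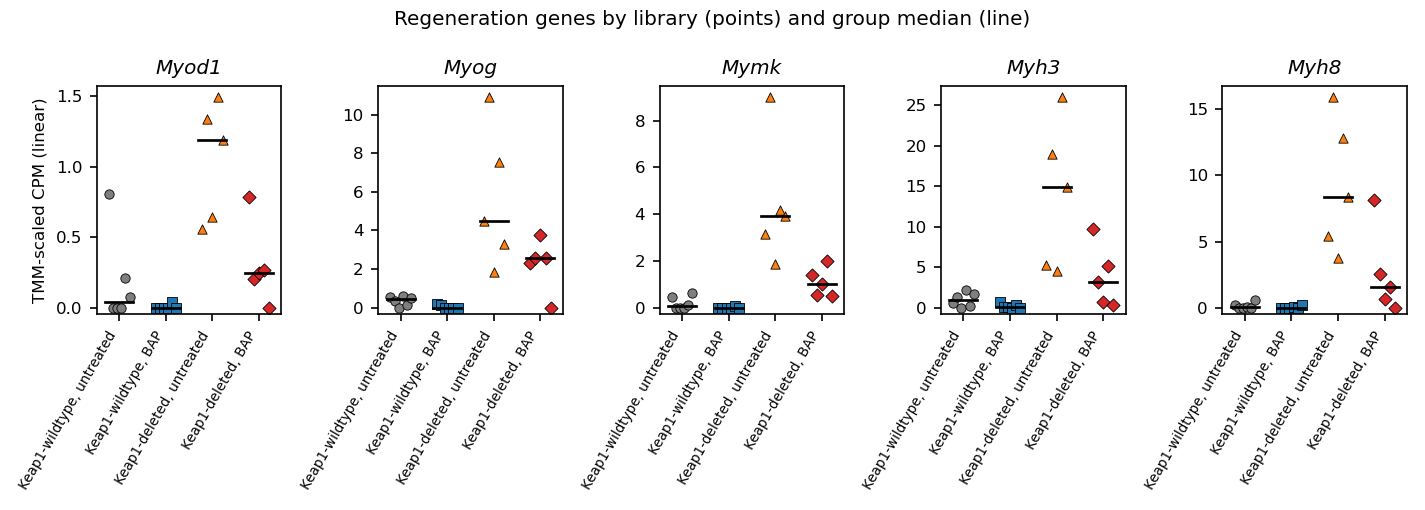
Each panel shows a regeneration gene, with 1 point per library on a linear axis of TMM-scaled CPM and a line at the group median. Myog, Mymk, Myh3 and Myh8 are higher in all 5 Keap1-deleted untreated tumours than in any Keap1-wildtype tumour, and the Keap1-deleted BAP medians lie between.

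Myod1 was the exception among the tested regeneration genes. It was at 0 to 0.804 CPM in Keap1-wildtype untreated tumours, with the highest value in Keap1-wildtype untreated 1, and at 0.558, 1.34, 0.646, 1.497 and 1.19 CPM in Keap1-deleted untreated tumours. The groups overlapped, and its log2 fold change was 2.51 (SE 1.12, adjusted p = 0.253 in edgeR).

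Adult myosins overlapped widely without BAP. Myh1 was at 0 to 88.6 CPM (median 21.7) in Keap1-wildtype untreated tumours and at 61.8, 107, 19.3, 156 and 37.9 CPM in Keap1-deleted untreated tumours. Its log2 fold change was 1.47 (SE 1.27, adjusted p = 0.550 in edgeR), and Keap1-wildtype untreated 2 exceeded 3 of the 5 deleted tumours. Myh2 was at 0 to 20.4 CPM (median 4.02) against 21.8, 46.1, 6.82, 167 and 19.9 CPM, a log2 fold change of 3.13 (SE 1.17). Actn3, which did not overlap, was at 0 to 6.68 CPM (median 3.19) against 15.7, 47.3, 8.31, 14.8 and 12.8 CPM, a log2 fold change of 2.76 (adjusted p = 0.171 in edgeR). Acta1 was at 0.349 to 124 CPM (median 55.0) against 209, 485, 66.6, 730.0 and 154 CPM, a log2 fold change of 2.61 (SE 1.19). Des was at 1.28 to 53.9 CPM (median 25.9) against 103, 241, 40.2, 274 and 88.7 CPM, a log2 fold change of 2.61 (SE 0.75). For actin and desmin a single deleted library, Keap1-deleted untreated 3, reached into the wildtype range. Pvalb was lower in the deleted group, at a log2 fold change of -0.79 (SE 1.62), and this sign turned to 0.44 without Keap1-wildtype untreated 2.

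**Figure D4:**
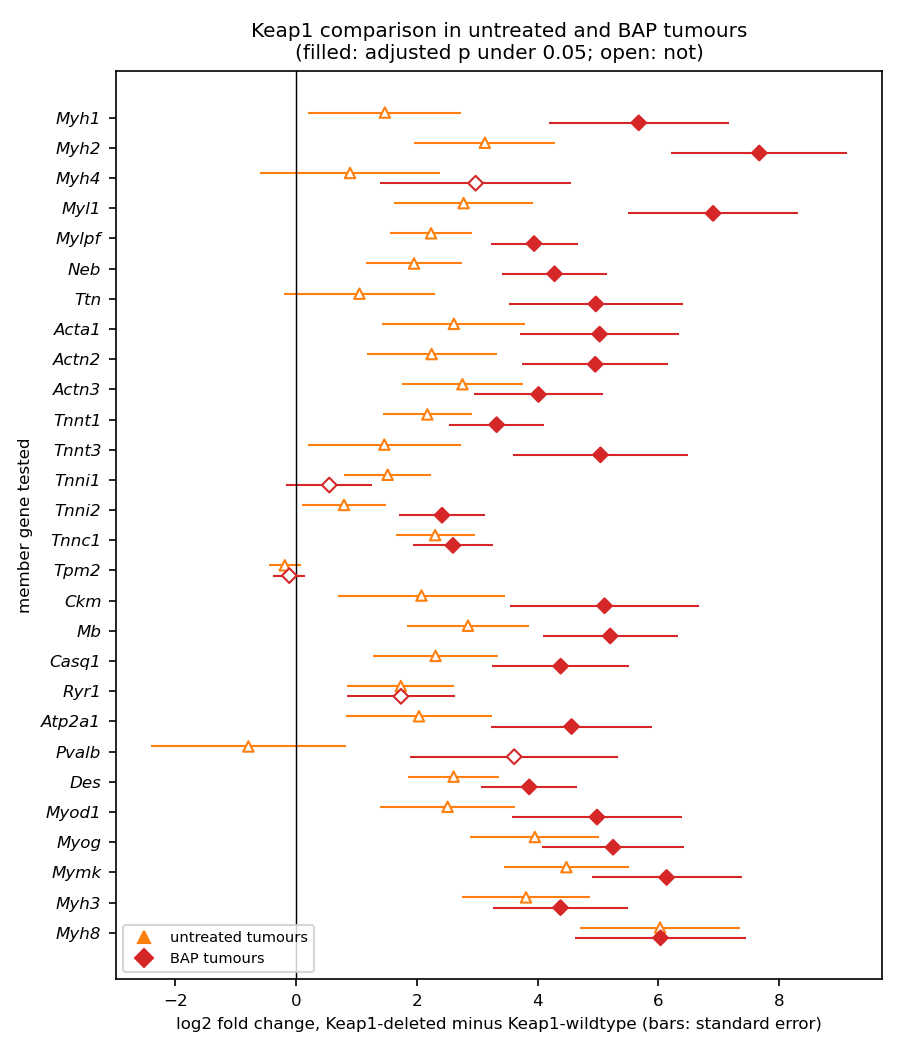
Log2 fold changes of the 28 tested members, Keap1-deleted minus Keap1-wildtype, with the standard error as a bar, in untreated tumours (triangles) and BAP tumours (diamonds). Filled symbols have an adjusted p under 0.05 in edgeR: 23 in BAP tumours and none in untreated tumours.

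The 2 Keap1 comparisons share no library, and the test of their difference called no member, where 2.47% of all genes were called higher. The median difference over the members was 2.07 on the log2 scale. Myh2 had the lowest adjusted p, with a difference of 4.54 (SE 1.70, adjusted p = 0.0941 in edgeR), and for Myh1 the difference was 4.20 (SE 1.87). For the regeneration genes the median difference was 1.29. It was 0.57 (SE 1.39) for Myh3 and 1.29 (SE 1.42) for Myog. Leaving out Keap1-wildtype BAP 2 brought 2 members past the threshold (Pvalb and Myl1), where 2.02% of all genes were called higher. Leaving out Keap1-deleted untreated 4 brought 1 (Myh2), where 3.54% were. Of the 8 macrophage markers 7 were called higher in the test on all libraries, and their part was not tested.

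Within each genotype, BAP moved no member past the threshold in edgeR. In Keap1-wildtype tumours the median log2 fold change of the 28 members was -2.56, and 0% of all genes rose at the adjusted threshold and none fell. The log2 fold change was -3.73 for Myh1 (SE 1.35, adjusted p = 0.215), -3.93 for Ttn (SE 1.36) and -2.68 for Acta1 (SE 1.16). DESeq2's test called 10 members lower here, where 4.51% of all genes fell, among them Myh1, Ttn, Mymk and Myod1. Myh1 was at 15.4 CPM or more in 4 of 6 Keap1-wildtype untreated tumours and at 9.01 CPM or less in all 6 BAP tumours, but Keap1-wildtype untreated 3 and 4, at 0 and 0.656 CPM, lay within the BAP range. None of the 8 fibroblast or 8 macrophage markers passed in this comparison in edgeR, but 8 and 7 of them had an unadjusted p under 0.05, with medians of -2.98 and -2.87. Their part was not tested.

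In Keap1-deleted tumours BAP left the fibre genes with a median log2 fold change of -0.08 and the regeneration genes with one of -1.84. None passed in edgeR and none had an unadjusted p under 0.05, where 0.943% of all genes rose and 5.16% fell. The log2 fold change was -2.02 for Mymk (SE 0.99, adjusted p = 0.258), -1.87 for Myh3 (SE 1.05), -1.84 for Myh8 (SE 1.17), -1.79 for Myod1 (SE 1.16) and -1.32 for Myog (SE 1.03). With limma-voom and sample weights 5 members were called lower, where 9.74% of all genes fell: Mymk, Myh3, Myh8, Myod1 and the slow troponin gene Tnnt1. Of the 10 keratinocyte markers 8 fell in the same comparison, and none of the 8 fibroblast or 8 macrophage markers passed the adjusted threshold. All 8 macrophage markers had log2 fold changes above 0 (median 1.59), 4 of them at an unadjusted p under 0.05. Their summed level was 371 to 1546 CPM in Keap1-deleted untreated and 1738 to 3730 CPM in Keap1-deleted BAP tumours, without overlap, and their part was not tested. The same untreated libraries enter the Keap1 comparison above, so the 2 sets of values are not independent.

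Because tumours differed in fibre RNA, the regeneration genes were also fitted with the mean log2 level of the tested fibre genes as a covariate, an analysis chosen after seeing the data. In BAP tumours Mymk remained higher with Keap1 deletion, at a log2 fold change of 4.24 (adjusted p = 0.0394 in edgeR), where 7.02% of all genes rose. Myog (2.80), Myh3 (2.86), Myh8 (1.89) and Myod1 (0.70) were above 0 but no longer passed. In untreated tumours the 5 fold changes were 4.04 for Myh8, 3.49 for Mymk, 2.86 for Myh3, 2.39 for Myog and 0.92 for Myod1, with adjusted p-values of 0.275 to 0.822 in edgeR.

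The make-up of the myosin heavy chains was compared per kilobase of gene length, in the 12 libraries with at least 1000 such counts. None was a Keap1-wildtype BAP tumour. The genes Myh3, Myh2, Myh1, Myh4 and Myh8 follow each other on the plus strand of chromosome 11 (GRCm38), from base 67078300 at the start of Myh3 to base 67308634 at the end of Myh8, and the slow Myh7 lies on chromosome 14. Myh1 was the main myosin in the 3 Keap1-wildtype untreated libraries, at 68.9%, 70.7% and 72.9%, against 43.6% to 63.9% in the 5 Keap1-deleted untreated and 46.8% to 68.1% in the 4 Keap1-deleted BAP libraries. Myh2 made up 13.8% to 14.9% in the first group, 17.7% to 41.6% in the second and 26.0% to 46.1% in the third. Among the 12, each Keap1-deleted library thus held a larger share of type 2A myosin than each wildtype library. Myh4 was at 6.79% to 15.8%, 4.61% to 11.5% and 3.21% to 9.15%. Myh7, the slow myosin, was at most 0.223% in any of the 12. In wildtype libraries below 1000 myosin counts, the Myh2 share ranged from 0 (Keap1-wildtype BAP 3, on 19 counts) to 49.8% (Keap1-wildtype BAP 5, on 30).

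The developmental myosins separated the groups further. Myh3 made up 5.75% to 18.3% of the myosin in Keap1-deleted untreated libraries, 1.07% to 4.61% in Keap1-wildtype untreated and 0.262% to 4.42% in Keap1-deleted BAP libraries. Myh8 made up 1.93% to 5.86%, 0 to 0.767% and 0.112% to 1.28%. In both cases the Keap1-deleted untreated libraries did not overlap the others among the 12. Below 1000 counts, Myh3 made up 72.3% of the myosin in Keap1-wildtype untreated 4, on 80 myosin counts, and 49.6% in Keap1-wildtype BAP 1, on 44. Both shares were above those of every Keap1-deleted untreated library. Keap1-deleted BAP 3 held the most myosin counts of all libraries, 14889, and the smallest share of Myh3 among the 12. Identical 100-base stretches of transcript could let reads cross between Myh1 and Myh2 (7.59% of windows) and between Myh8 and Myh2 (3.37%), but none of the Myh3 windows were found in the other 5. The deposited length of Myh8, 11772 bases, is longer than those of the other heavy chains (6016 to 8616), which lowers its share per kilobase.

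**Figure D5:**
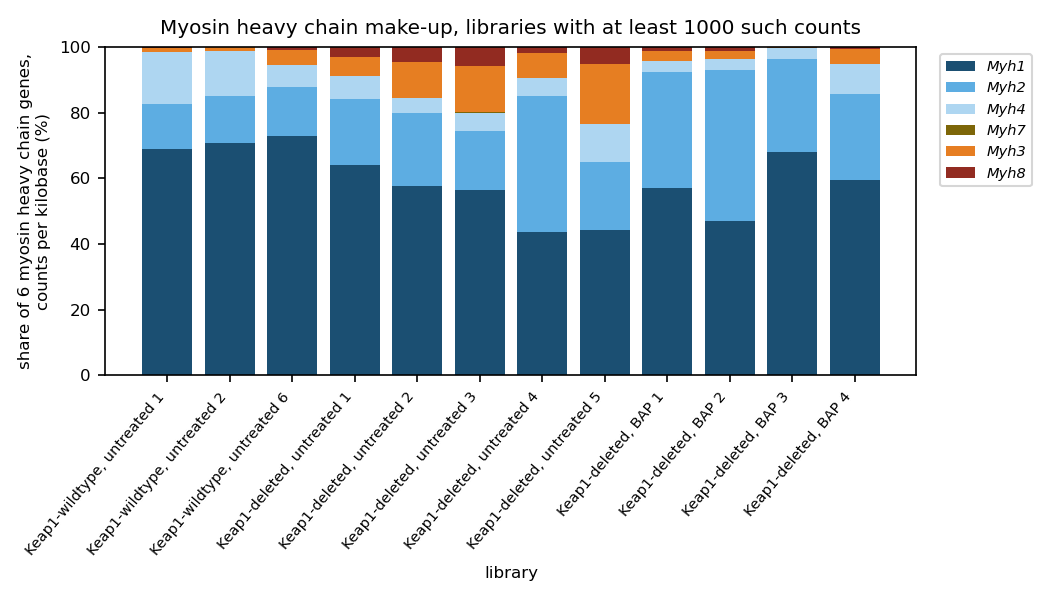
Stacked bars give the share of 6 myosin heavy chain genes per kilobase in the 12 libraries with at least 1000 such counts. The orange and dark red parts, Myh3 and Myh8, are widest in the 5 Keap1-deleted untreated libraries, and the mid-blue part, Myh2, is narrowest in the 3 Keap1-wildtype untreated libraries.

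Fast fibre genes exceeded slow ones in mean log2 CPM in nearly all libraries. These means are not scaled by gene length, so the size and sign of the difference also depend on gene lengths and the members chosen. The mean log2 CPM of fast members minus that of slow members was -1.35 to 4.67 (median 3.11) in Keap1-wildtype untreated tumours and -0.44 to 3.85 (median 0.77) in Keap1-wildtype BAP tumours. It was 4.05, 3.74, 2.50, 4.61 and 3.43 in Keap1-deleted untreated and 4.09, 3.83, 5.19, 4.26 and 0.38 in Keap1-deleted BAP tumours. The low differences came from libraries with little muscle. Per kilobase of length, Acta1 was the most abundant member in the Keap1-deleted tumours, with a median of 136 CPM per kilobase untreated and 152 with BAP, followed by Tpm2 (101 and 104), with Mylpf (28.0 and 49.8) and Des (27.4 and 22.8) next. Myog (2.99) and Mymk (2.58) were above the embryonic myosin Myh3 (2.47) per kilobase in the untreated group, though their ranges overlapped.

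Other muscle genes moved with the members. Of 35 further fibre genes, 26 rose with Keap1 deletion under BAP, where 20.3% of all genes rose and 20% fell. The smallest p-values were those of Tmod4, which caps thin filaments (log2 fold change 3.58), and the M-band gene Myom1 (3.20). Next were the tropomyosin gene Tpm1 (1.81) and Smpx, a small protein of striated muscle (8.18). Of 19 tested genes of other regeneration steps, 13 rose and 1 fell, among them Myl4, an embryonic light chain (2.97), Mef2c (2.42) and Ncam1 (3.57). Dok7, of the neuromuscular synapse, was the 1 that fell (-1.83), named after its value was seen. Without BAP, Myl4 alone of these further genes rose, from 2.42 to 11.03 CPM in Keap1-wildtype to 15.8 to 62.8 CPM in Keap1-deleted untreated tumours, a log2 difference of 2.82 (SE 0.51, adjusted p = 0.0195 in edgeR). Tmod4 and the laminin receptor gene Itga7 were also called higher in the test of the difference between the 2 Keap1 comparisons. The 8 heart markers summed to medians of 24.96 and 30.8 CPM in Keap1-wildtype tumours without and with BAP, and 24.0 and 7.89 CPM in Keap1-deleted tumours. Most of this was cardiac troponin T (Tnnt2), at 4.78 to 57.5 CPM in Keap1-wildtype BAP and 4.03 to 7.87 CPM in Keap1-deleted BAP tumours. It fell with Keap1 deletion under BAP, by 2.25 on the log2 scale (SE 0.57). Of the 4 heart markers tested in that comparison it was the 1 that fell, and 2 rose. These were Mybpc3 (log2 fold change 5.27) and Ryr2 (4.98), at means of only 0.575 and 0.656 CPM in Keap1-deleted BAP tumours. Myh6, the atrial myosin, was at 0 in every BAP library and at most 0.463 CPM elsewhere.

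Across the 22 libraries, genes most like the regeneration sum were Myl4 (Spearman rho 0.927), Mybph (0.905), Cap2 (0.893), Myoz2 (0.892), Lrtm1 (0.891), Cav3 (0.889), Chrng, the fetal subunit of the acetylcholine receptor (0.885), Rgl3 (0.885), Hfe2 (0.885) and Blvrb (0.879). Among those most like the fibre sum with Tpm2 were Csrp3 (0.909), Trdn (0.908), Alpk3 (0.908), Smtnl1 (0.904), Kcnj11 (0.904), Tcap (0.902), Fitm1 (0.900), 2310002L09Rik (0.898) and Jsrp1 (0.896). Without Tpm2 the highest was Myom2 (0.968). These are descriptions over libraries that share the 4 groups and the muscle content.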

How the data were processed

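RNA of 22 primary tumours was sequenced as paired reads. The authors deposited an expected count and a gene length for each of 56748 identifiers per tumour, and all counts were whole numbers, per the deposited files. For aligner, annotation and genome build, nothing is given in the sources used here. Deposited lengths, another kind of value, equalled GENCODE exon lengths for 50065 of 52073 identifiers with a symbol, so GRCm38 coordinates were used.

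Libraries were scaled by TMM in edgeR 4.0.16 (R 4.3.3) and fitted with its quasi-likelihood test over all 22 libraries and 4 groups. Genes were kept by edgeR's filter with a minimum count of 10, which left 19202 genes and 28 of the 34 members, and p-values were adjusted by Benjamini-Hochberg over all 19202 with a threshold of 0.05. Standard errors were taken from the fold change and the F statistic. Tested on simulated data for Keap1 deletion with 18645 genes, the fit found 128 of 200 genes changed 8-fold and called 3 unchanged ones. Alternatives were DESeq2 1.42.0, limma 3.58.1 (voom with sample weights), other scalings and filters, covariates, and leaving out each library. Those without the 2 libraries together, without titles ending in R, with the fibre level as a covariate, without Tpm2 and without the highest library in a bound were chosen after seeing the data. Members and gene lists were chosen with earlier results of these data known. Genes named were all members and Keap1, up to 4 called genes of each other muscle list by smallest p, at most 2 genes of a cell type list by mean CPM, markers at 0, and the 10 genes most alike to each sum; some genes that this rule names are not reported here. Promoter sequences are from RefSeq (GRCm38.p6).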

Additional observations from a re-analysis of the deposited data

Results flagged for a closer look

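Within each group, 137 sets of values of members and sums were searched on the log2 scale for a library far from the rest, and 20 were found, where chance gives about 1 in 20. Of these, 11 were the low values of Keap1-deleted BAP 5: the fibre sum without Tpm2 (36.3 CPM), Myh1 (0.648 CPM), Myh4 (0 CPM), Myl1 (0.942 CPM), Mylpf (3.12 CPM), Acta1 (4.56 CPM), Actn2 (1.03 CPM), Tnnt3 (0.589 CPM), Ckm (0 CPM), Mb (0 CPM) and Myog (0 CPM). The count of members that rose with Keap1 deletion under BAP was 23 with and without this library.

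Keap1-wildtype BAP 2 was far above its group for Atp2a1 (11.7 CPM) and Pvalb (1.43 CPM), and Keap1-wildtype untreated 2 for Tnni1 (13.1 CPM). Tpm2 was far below its group in Keap1-deleted untreated 3 (113 CPM). The other 5 were single libraries with a few counts of a gene nearly at 0 in the rest of the group: Myl3 in Keap1-deleted untreated 4 (0.0300 CPM), Pax7 in Keap1-deleted BAP 4 (0.0804 CPM), Myod1 and Mymk in Keap1-wildtype BAP 5 (0.0382 and 0.0763 CPM) and Myh8 in Keap1-wildtype BAP 6 (0.187 CPM).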

How the results depend on the processing

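With BAP, the count of members rising was 20 to 25 under every alternative run for it except the keratinocyte covariate, where it was 0, and 22 to 25 leaving out single libraries. The fibre-level covariate, fitted for the 5 regeneration genes alone, left 1 of them called (Mymk). Without BAP the count of 0 became 2 with a filter of 1 CPM in 5 libraries, 9 with DESeq2's test, 2 with the keratinocyte covariate, 1 with library totals, 12 with limma-voom, 7 without Keap1-wildtype untreated 6 and the library labelled Keap1-deleted BAP 2, and 0 to 7 leaving out single libraries: 7 without Keap1-wildtype untreated 6 and 1 without Keap1-deleted BAP 1 or 5. The members lower with BAP numbered 10 in Keap1-wildtype tumours with DESeq2's test and 5 in Keap1-deleted tumours with limma-voom. The difference between the Keap1 comparisons gave 1 member with DESeq2's test (Myh2) and 0 to 2 leaving out single libraries (1 without Keap1-deleted untreated 4). It has no value in fits on only the groups compared, which were not run for it. The causes were not tested.

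Signs reversed for uncalled genes: without BAP, Tpm2 was -0.36 to 0.02 leaving out single libraries (0.02 without Keap1-deleted untreated 3), and Pvalb was -1.62 to 0.44 (0.44 without Keap1-wildtype untreated 2), 1.35 with limma-voom and 5.80 without titles ending in R. With BAP, Tpm2 was 0.34 with library totals and -0.33 to 0.06 leaving out single libraries (0.06 without Keap1-deleted BAP 5). Regeneration CPM per 100 fibre CPM from mean log2 CPM had medians of 8.17 and 14.3 in wildtype tumours without and with BAP. In deleted tumours the medians were 15.2 and 7.54, an order that differs from the main one. On that scale the Keap1-deleted untreated tumours overlapped every other group. Without Tpm2 it was 0.768, 0.315 and, in Keap1-deleted BAP tumours, 1.28, and without Myh3 and Myh8 1.05 and 0.327 in Keap1-deleted untreated and BAP tumours. Without gene length, the median share of Myh2 was 16.1% in Keap1-wildtype untreated tumours, and that of Myh8 was 8.14% and 1.58% in Keap1-deleted untreated and BAP tumours. No paired analysis was possible because the replicate numbers were given in order of deposition and pair no samples. Depth limits Pax7, Myf5, Myl3 and Myh7, which had few counts.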
